A study of Mus musculus with 8 samples.

Results

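The genes described here are 32 glycolysis and hypoxia response genes, taken by gene symbol from a table of 54532 mouse genes. They comprise 3 transporters, 17 glycolytic enzymes, 3 kinases that set glycolytic flux, 2 HIF alpha subunits and 7 targets of the hypoxia response. Aldoa is listed under 2 identifiers, so the 32 symbols correspond to 33 identifiers. Counts of genes below use the main Aldoa identifier (ENSMUSG00000030695). Ankrd37 had too few counts to be tested, which left 31 genes tested of 32.

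RNA was sequenced from mouse embryonic fibroblasts, labelled as wild type, after 4 days in 1 of 4 media, with 2 libraries for each medium. The control group (MEF) was kept in fibroblast medium. All 3 remaining groups shared the CFAE cocktail: CHIR99021, which inhibits the kinase GSK-3, Forskolin, which activates adenylyl cyclase, AM580, a retinoic acid receptor agonist, and a compound labelled EPZ04777. Group CFAE+8 also received A-83-01, group CFAE+8+MSC received A-83-01 and the CDK8 inhibitor MSC2530818, and group CFAE+6 received E-616452 in place of A-83-01. A-83-01 and E-616452 are both inhibitors of the TGF-beta type I receptor. The labels give no dose, age or number of embryos. They also do not state that libraries with the same medium were cultured apart, so p-values measure the spread between these samples only, which may be technical.

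Glycolysis splits glucose into pyruvate. Glucose enters through GLUT transporters, is trapped by hexokinase, committed by phosphofructokinase, split by aldolase and oxidised by GAPDH, and the pyruvate is either burned in mitochondria or reduced to lactate by lactate dehydrogenase and exported by monocarboxylate transporters. HIF transcription factors, whose alpha subunits are destroyed when oxygen is plentiful, raise many of these genes in hypoxia together with survival and vessel genes such as Vegfa, and growth signals can raise the same genes in normal oxygen.

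Levels are CPM, counts scaled to library size with the TMM method, which corrects library totals for composition. Changes are log2 fold changes ± standard error from edgeR's quasi-likelihood test, and a gene was called higher or lower at a Benjamini-Hochberg adjusted p under 0.05 over the 15470 genes tested. The 95% intervals given for single genes are not adjusted for the number of genes. Library totals lay between 10958430 and 11913143 counts, and 3 counts in a library of average size correspond to 0.265 CPM. Summed fibroblast markers, 10 genes with none at 0, stood at 30400 to 31160 CPM in MEF and at 11860 to 13210 CPM in the cocktail groups, where in each comparison with MEF 7 of the 10 were lower and 3 higher. Summed macrophage markers stood at 176 to 179.5 CPM in MEF and at 15.3 to 34.4 CPM in the cocktails, and mitochondrial transcripts took 1.21% to 1.24% of counts in MEF and 1.96% to 2.21% in the cocktails. Summed epithelial markers, 7 genes with none at 0, stood at 19.7 to 22.8 CPM in MEF, 10.9 to 11.8 CPM in CFAE+8, 41.2 to 45.5 CPM in CFAE+8+MSC and 37.8 to 38.6 CPM in CFAE+6. Red blood cell markers summed to at most 0.520 CPM, with Hbb-bs, Hbb-bt and Hba-a2 at 0. The part of these shifts in the results below was not tested, and in bulk RNA fewer cells that express a gene cannot be told apart from less RNA per cell.

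The comparisons of each cocktail with MEF asked how sugar metabolism and hypoxia genes stood after the change of medium. Most glycolytic enzymes were lower in every cocktail, while Hk2, the lactate transporter gene Slc16a1, the flux kinase gene Pfkfb4 and Vegfa were higher. In CFAE+8 against MEF, 8 of the 31 tested genes were called higher and 19 lower, where 62.0% of all tested genes were called, 30.8% higher and 31.3% lower. In CFAE+6 against MEF, 7 were higher and 18 lower, where 63.1% of all tested genes were called, 31.6% higher and 31.5% lower. In CFAE+8+MSC against MEF, 8 were higher and 18 lower, where 64.1% of all tested genes were called, 31.9% higher and 32.2% lower. The median log2 change of the 31 genes was -0.27 in CFAE+8, -0.51 in CFAE+6 and -0.38 in CFAE+8+MSC, beside medians of 0.01, 0.02 and 0.01 over all tested genes. The libraries did not overlap with MEF for 29 of the 31 genes in CFAE+8, beside 80.0% of all tested genes, for 30 in CFAE+6, beside 79.5%, and for 28 in CFAE+8+MSC, beside 80.5%. These 3 comparisons share the same MEF libraries.

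The scaling of the libraries bears on the smaller of these changes. With library totals in place of TMM, the median of all genes moved up by 0.174 in CFAE+8, 0.157 in CFAE+6 and 0.133 in CFAE+8+MSC against MEF, and the share of called genes that were higher went from 49.6% to 62.5%, from 50.1% to 61.6% and from 49.7% to 59.2%. On that scale no called gene of the 31 changed sign, 14 in place of 19 were lower in CFAE+8, and Pgam1 was no longer called in any of the 3 comparisons.

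**Figure D1:**
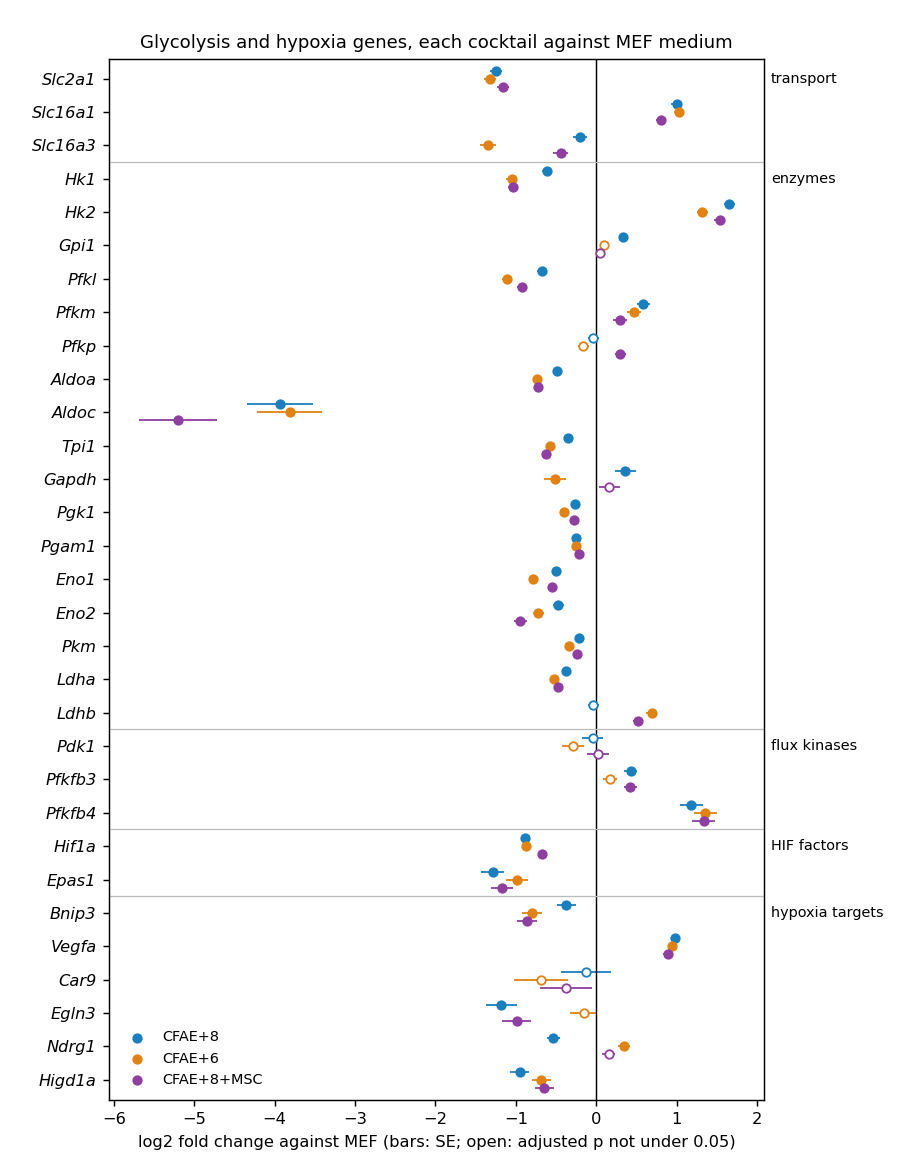
Log2 fold change against MEF for each tested gene in the 3 cocktail groups, with bars for the standard error and open symbols where the adjusted p was not under 0.05. Most enzymes lie left of 0, Hk2, Slc16a1, Pfkfb4 and Vegfa lie right of it in all 3 cocktails, and Aldoc lies farthest left at -3.81 to -5.20.

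Slc2a1 encodes GLUT1, the basal glucose transporter of most cells (ENSMUSG00000028645, chr4:119108711-119137983, plus strand, mm10). It stood at 126 and 121 CPM in MEF, 56.8 and 47.3 CPM in CFAE+8, 54.99 and 55.9 CPM in CFAE+8+MSC and 47.2 and 51.9 CPM in CFAE+6. All 6 cocktail libraries lay below both MEF libraries, at less than 0.5 of their level, and the CFAE+8 libraries overlapped with both other cocktail groups. Its log2 change against MEF was -1.25 ± 0.08 (adjusted p = 1.19e-14) in CFAE+8, -1.32 ± 0.08 (adjusted p = 3.64e-15) in CFAE+6 and -1.16 ± 0.08 (adjusted p = 6.11e-14) in CFAE+8+MSC.

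Lactate leaves or enters cells through the monocarboxylate transporters MCT1, encoded by Slc16a1 (ENSMUSG00000032902, chr3:104638668-104658462, plus strand), and MCT4, encoded by Slc16a3 (ENSMUSG00000025161, chr11:120948480-120960868, plus strand), the form known for lactate export from glycolytic cells. Slc16a1 stood at 63.3 and 58.8 CPM in MEF, 121 and 123 CPM in CFAE+8, 105 and 109 CPM in CFAE+8+MSC and 122 and 127 CPM in CFAE+6, so that every cocktail library was above both MEF libraries. Its change against MEF was 0.998 ± 0.06 (adjusted p = 3.83e-14) in CFAE+8, 1.03 ± 0.06 (adjusted p = 1.68e-14) in CFAE+6 and 0.81 ± 0.07 (adjusted p = 6.47e-12) in CFAE+8+MSC. Slc16a3 went the other way, at 52.3 and 48.00 CPM in MEF, 45.2 and 41.9 CPM in CFAE+8, 35.1 and 38.6 CPM in CFAE+8+MSC and 19.1 and 20.3 CPM in CFAE+6. The CFAE+6 libraries were the lowest and did not overlap with any other group, while the CFAE+8 libraries lay just under the MEF libraries. Slc16a3 changed by -1.35 ± 0.10 relative to MEF in CFAE+6 (adjusted p = 6.48e-13) and by -0.44 ± 0.09 (adjusted p = 8.97e-05) in CFAE+8+MSC. The small difference in CFAE+8, -0.20 ± 0.09 (adjusted p = 0.0474), was not called without MEF replicate 1 (-0.14), CFAE+8 replicate 1 (-0.25) or CFAE+8 replicate 2 (-0.14), nor with library totals (-0.03), DESeq2 or the replicate number as a block. As a share of the counts per kilobase of this transporter pair, Slc16a3 made up 40.6 ± 0.200% in MEF, 11.6 ± 0.155% in CFAE+6, 22.9 ± 1.13% in CFAE+8 and 22.3 ± 0.740% in CFAE+8+MSC (mean ± SD, n = 2).

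The stretches just before the start sites of these 3 transporter genes and of Hk2 are shown because Slc2a1 and Slc16a3 were lower, and Slc16a1 and Hk2 higher, than in MEF. They come from the RefSeq table of build GRCm38.p6, read on the strand of the gene, and capitals mark each match to the core letters of a HIF-type hypoxia response element, ACGTG or GCGTG, on either strand (CACGT or CACGC on the other), with overlapping matches such as CACGTG counted once. The windows are chr4:119108495-119108710 for Slc2a1, chr3:104638414-104638663 for Slc16a1, chr11:120948817-120949052 for Slc16a3 and chr6:82774455-82774704 on the minus strand for Hk2, ended where an annotated exon begins. Unlike the others, the Slc16a3 window lies inside the annotated span of its gene, which begins at base 120948480. It precedes a RefSeq start site within that span.
Slc2a1: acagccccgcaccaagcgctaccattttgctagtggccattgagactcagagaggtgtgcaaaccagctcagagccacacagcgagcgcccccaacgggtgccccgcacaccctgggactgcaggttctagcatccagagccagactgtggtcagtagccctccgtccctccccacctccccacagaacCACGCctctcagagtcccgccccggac
Slc16a1: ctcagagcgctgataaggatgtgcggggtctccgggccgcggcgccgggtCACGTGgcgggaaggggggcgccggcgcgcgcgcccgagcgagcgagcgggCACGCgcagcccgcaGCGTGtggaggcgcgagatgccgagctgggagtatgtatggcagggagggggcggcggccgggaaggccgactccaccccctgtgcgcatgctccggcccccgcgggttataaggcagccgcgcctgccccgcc
Slc16a3: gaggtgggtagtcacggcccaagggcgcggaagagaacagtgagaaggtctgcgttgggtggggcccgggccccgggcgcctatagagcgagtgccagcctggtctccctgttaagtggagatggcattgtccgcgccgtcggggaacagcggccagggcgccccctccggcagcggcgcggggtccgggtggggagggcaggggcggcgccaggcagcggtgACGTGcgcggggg
Hk2: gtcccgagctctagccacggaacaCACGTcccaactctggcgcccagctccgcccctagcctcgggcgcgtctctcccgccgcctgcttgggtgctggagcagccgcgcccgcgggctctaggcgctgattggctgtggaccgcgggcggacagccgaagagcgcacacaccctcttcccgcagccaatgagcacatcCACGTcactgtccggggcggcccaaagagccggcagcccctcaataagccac
The core letters occurred 1 time in the Slc2a1 stretch, 3 times in that of Slc16a1, where 1 match is the palindrome CACGTG, 1 time in that of Slc16a3 and 2 times in that of Hk2. The stretches of Slc2a1 and Slc16a3 end before the full window does, and over all 250 bases each of these genes held 2 matches. All of the genes shown held a match, and they were chosen with their directions known. A link between matches and direction was not tested. Of the 30 genes with an entry in the table, 27 (90%) held the core within 250 bases before at least 1 start site, compared with 60.5% of 11030 tested genes with an entry and 41.5% of all 27025 genes. Genes with more start sites have more windows that can match. Per window, 35 of 44 (79.5%) held the core, beside 38.6% of all 32851 windows. The genes were picked by role, not drawn at random. Eno2, Tpi1 and Gpi1 had no match, and Epas1 and Ndrg1 had no entry. Such a short match is a description of letters, not a site that was shown to be bound.

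The main hexokinase transcript, whose enzyme traps glucose as glucose 6-phosphate, differed between MEF and the cocktails. Hk1 (ENSMUSG00000037012, chr10:62268855-62379908, minus strand), the housekeeping form, stood at 147 and 146 CPM in MEF, 97.2 and 94.5 CPM in CFAE+8, 70.5 and 72.2 CPM in CFAE+8+MSC and 74.3 and 66.8 CPM in CFAE+6. Hk2 (ENSMUSG00000000628, chr6:82725025-82774454, minus strand), the inducible form of muscle, fat and growing cells, stood at 54.6 and 57.1 CPM in MEF, 177 and 174 CPM in CFAE+8, 151 and 173 CPM in CFAE+8+MSC and 141 and 138 CPM in CFAE+6. Neither gene's cocktail libraries overlapped with MEF, and the directions were opposite. Hk1 changed by -0.61 ± 0.06 in CFAE+8 (adjusted p = 7.70e-10), by -1.05 ± 0.06 in CFAE+6 (adjusted p = 8.60e-15) and by -1.04 ± 0.06 in CFAE+8+MSC (adjusted p = 1.25e-14). Hk2 rose by 1.65 ± 0.07 in CFAE+8 (adjusted p = 6.76e-19), by 1.32 ± 0.07 in CFAE+6 (adjusted p = 2.24e-16) and by 1.53 ± 0.07 in CFAE+8+MSC (adjusted p = 4.94e-18). Of hexokinase 1 and 2 counts per kilobase, Hk2 made up 35.3 ± 0.842% in MEF, 73.9 ± 1.07% in CFAE+6, 72.4 ± 0.191% in CFAE+8 and 76.4 ± 1.49% in CFAE+8+MSC. Without division by length, the share went from 27.6% in MEF to between 64.7% and 69.3%. Groups of 2 libraries are too few for an exact test of a share.

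Phosphofructokinase catalyses the committed step and has a liver (Pfkl), a muscle (Pfkm) and a platelet (Pfkp) subunit. Pfkl was the main subunit in MEF and stood at 154 and 146 CPM in MEF, 94.5 and 93.97 CPM in CFAE+8, 78.5 and 79.9 CPM in CFAE+8+MSC and 64.2 and 74.9 CPM in CFAE+6. It was lower in all 3 cocktails, with changes of -0.67 ± 0.07 (adjusted p = 3.27e-10) in CFAE+8, -1.11 ± 0.07 (adjusted p = 8.80e-15) in CFAE+6 and -0.92 ± 0.07 (adjusted p = 4.72e-13) in CFAE+8+MSC. Pfkm stood at 44.7 and 47.4 CPM in MEF, 70.6 and 67.7 CPM in CFAE+8, 51.7 and 61.6 CPM in CFAE+8+MSC and 62.7 and 64.5 CPM in CFAE+6, with no cocktail library as low as MEF. Its rise was 0.59 ± 0.08 (adjusted p = 3.90e-07) in CFAE+8, 0.47 ± 0.08 (adjusted p = 1.64e-05) in CFAE+6 and 0.30 ± 0.08 (adjusted p = 0.00296) in CFAE+8+MSC, where the last was not called without CFAE+8+MSC replicate 2 (0.18). Exons of Pfkm overlap other genes over 10.7% of their length, and the kit did not mark strand, so its counts are uncertain. Pfkp stood at 73.5 and 73.5 CPM in MEF, 73.2 and 70.2 CPM in CFAE+8, 87.3 and 93.8 CPM in CFAE+8+MSC and 69.3 and 62.2 CPM in CFAE+6 and was called against MEF only in CFAE+8+MSC, at 0.30 ± 0.07 (adjusted p = 4.26e-04), although the difference in CFAE+6, -0.16 ± 0.07, was called without CFAE+6 replicate 1 (-0.23) and with libraries scaled by relative log expression (RLE). As shares of counts per kilobase, Pfkl was at 53.9 ± 1.61% in MEF, 30.3 ± 2.28% in CFAE+6, 35.2 ± 0.586% in CFAE+8 and 33.4 ± 2.01% in CFAE+8+MSC. Pfkm was at 32.99 ± 1.54% in MEF, 55.4 ± 0.719% in CFAE+6, 51.5 ± 0.475% in CFAE+8 and 47.6 ± 2.43% in CFAE+8+MSC. These shares rest on the lengths used: the deposited length of Pfkp, 13401 bases, is the union of all its exons, and without division by length Pfkm held 17.1% in MEF and 25% to 32% in the cocktails, so that it was not the main subunit on that measure in any cocktail.

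**Figure D2:**
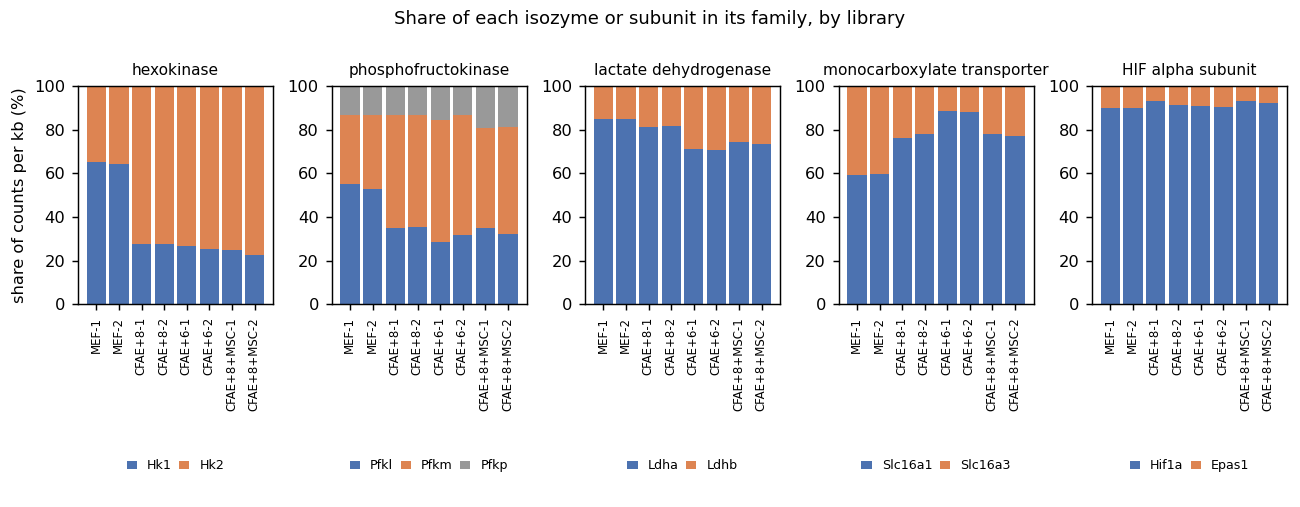
Share of each form in its family, in percent of counts per kilobase, for each of the 8 libraries (bars) in 5 families. Hk2 goes from 35.3% in MEF to over 72% in the cocktails, and the Slc16a3 share is lowest in CFAE+6 at 11.6%.

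Aldoa, Tpi1, Pgk1 and Pgam1 were lower than in MEF in all 3 cocktails, with log2 changes between -0.21 and -0.73. Aldoa (ENSMUSG00000030695, chr7:126795234-126800751, minus strand), the aldolase that splits fructose 1,6-bisphosphate, stood at 968 and 938 CPM in MEF, 676 and 687 CPM in CFAE+8, 581 and 577 CPM in CFAE+8+MSC and 558 and 589 CPM in CFAE+6. Both MEF libraries were above all 6 cocktail libraries, and the log2 change was -0.48 ± 0.04 (adjusted p = 2.14e-11) in CFAE+8, -0.73 ± 0.04 (adjusted p = 1.68e-15) in CFAE+6 and -0.72 ± 0.04 (adjusted p = 2.66e-15) in CFAE+8+MSC. Tpi1, which interconverts the 3-carbon products, stood at 419 and 406 CPM in MEF, 321 and 327 CPM in CFAE+8, 261 and 271 CPM in CFAE+8+MSC and 266 and 286 CPM in CFAE+6, also without overlap with MEF, and changed by -0.35 ± 0.05, -0.58 ± 0.05 and -0.63 ± 0.05 in the same order (adjusted p at most 3.46e-07). Pgk1, the first ATP-making step of the pathway, stood at 499 and 507 CPM in MEF, 424 and 410.2 CPM in CFAE+8, 417 and 415 CPM in CFAE+8+MSC and 378 and 386 CPM in CFAE+6. Pgam1, which moves the phosphate of phosphoglycerate, stood at 398 and 379 CPM in MEF, 332 and 317 CPM in CFAE+8, 349 and 323 CPM in CFAE+8+MSC and 324 and 326 CPM in CFAE+6. Their falls were shallow, -0.27, -0.40 and -0.27 for Pgk1 and -0.26, -0.26 and -0.21 for Pgam1 in CFAE+8, CFAE+6 and CFAE+8+MSC. All 6 were called (largest adjusted p 4.86e-04), but with library totals those of Pgam1 and that of Pgk1 in CFAE+8 (-0.10) were not.

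Pkm, which encodes the pyruvate kinase that makes pyruvate, had the highest level per kilobase of the 32 genes in MEF. That order uses the deposited lengths and leaves out counts of gene copies, described with Gapdh below. Pkm stood at 2148 and 2124 CPM in MEF, 1833 and 1834 CPM in CFAE+8, 1741 and 1893 CPM in CFAE+8+MSC and 1606 and 1772 CPM in CFAE+6. Its change was -0.22 ± 0.04 (adjusted p = 3.60e-05) in CFAE+8, -0.34 ± 0.04 (adjusted p = 3.52e-08) in CFAE+6 and -0.23 ± 0.04 (adjusted p = 1.57e-05) in CFAE+8+MSC, and the first was -0.05 and not called with library totals. Pkm shares 15.3% of its exon length with other genes, and counts per gene do not separate its M1 and M2 forms. Gpi1, the isomerase before phosphofructokinase, stood apart from this pattern, at 324 and 314 CPM in MEF, 387 and 416 CPM in CFAE+8, 322 and 338 CPM in CFAE+8+MSC and 327 and 356 CPM in CFAE+6. Gpi1 shares 11.5% of its exon length with other genes and is uncertain for that reason. It was higher than MEF in CFAE+8, at 0.33 ± 0.05 (adjusted p = 1.70e-06), and was not called in CFAE+6 (0.10 ± 0.05, 95% interval -0.01 to 0.20) or CFAE+8+MSC (0.05 ± 0.05, 95% interval -0.06 to 0.15). With upper-quartile scaling the difference in CFAE+6 was 0.14 and called. With library totals it was 0.25 in CFAE+6 and 0.18 in CFAE+8+MSC, both called. Without CFAE+6 replicate 1 the difference in CFAE+6 was 0.17 and called.

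Ldha (ENSMUSG00000063229, chr7:46841475-46855627, plus strand), the lactate dehydrogenase subunit that favours lactate formation, stood at 965 and 907 CPM in MEF, 712 and 727 CPM in CFAE+8, 673 and 676 CPM in CFAE+8+MSC and 639.8 and 661 CPM in CFAE+6. All cocktail libraries were below MEF, with changes of -0.38 ± 0.04 in CFAE+8, -0.53 ± 0.04 in CFAE+6 and -0.47 ± 0.04 in CFAE+8+MSC (adjusted p at most 3.48e-09). Ldhb, the heart-type subunit that favours the return to pyruvate, stood at 79.6 and 77.6 CPM in MEF, 77.2 and 75.99 CPM in CFAE+8, 109 and 117 CPM in CFAE+8+MSC and 123 and 130.4 CPM in CFAE+6. The CFAE+8 libraries lay just below MEF and those of CFAE+8+MSC and CFAE+6 above it. Ldhb rose by 0.69 ± 0.06 in CFAE+6 (adjusted p = 1.10e-10) and by 0.52 ± 0.06 in CFAE+8+MSC (adjusted p = 3.62e-08), and in CFAE+8 its difference was -0.04 ± 0.07 with a 95% interval of -0.17 to 0.10. Its share of lactate dehydrogenase counts per kilobase was 15.05 ± 0.320% in MEF, 29.1 ± 0.397% in CFAE+6, 18.3 ± 0.389% in CFAE+8 and 26.1 ± 0.909% in CFAE+8+MSC. Without division by length, the Ldhb share was 7.75% in MEF, 16.3% in CFAE+6, 9.62% in CFAE+8 and 14.3% in CFAE+8+MSC.

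The neural forms of aldolase and enolase were lower as well. Aldoc stood at 11.7 and 7.88 CPM in MEF, 0.683 and 0.594 CPM in CFAE+8, 0.520 and 0 CPM in CFAE+8+MSC and 0.617 and 0.770 CPM in CFAE+6, which in the cocktails rests on at most 9 counts per library, and 1 CFAE+8+MSC library had none. Its log2 changes were -3.94 ± 0.41 (adjusted p = 1.25e-09) in CFAE+8, -3.81 ± 0.40 (adjusted p = 1.84e-09) in CFAE+6 and -5.20 ± 0.48 (adjusted p = 1.37e-10) in CFAE+8+MSC. Eno2 stood at 79.9 and 81.98 CPM in MEF, 57.5 and 59.2 CPM in CFAE+8, 42.2 and 42.1 CPM in CFAE+8+MSC and 47.5 and 50.8 CPM in CFAE+6 and changed by -0.47 ± 0.07, -0.72 ± 0.07 and -0.94 ± 0.08 in the same order (adjusted p at most 1.55e-06). Summed neuronal markers stood at 118 to 119.8 CPM in MEF and at 105 to 138 CPM in the cocktails. The counts of all 17 enzymes together were 7312 ± 107 CPM in MEF, 5415 ± 208 CPM in CFAE+6, 6078 ± 1.54 CPM in CFAE+8 and 5737 ± 111 CPM in CFAE+8+MSC. The difference from MEF was -25.9% in CFAE+6, -16.9% in CFAE+8 and -21.5% in CFAE+8+MSC, or -17.5%, -6.22% and -14.01% without the TMM factor.

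Gapdh (ENSMUSG00000057666, chr6:125161715-125166467, minus strand) encodes the enzyme that oxidises glyceraldehyde 3-phosphate and is often used as a reference gene. Its row in this table holds only a small share of the reads that match its sequence. It held 205 and 172 counts in MEF, 148 and 136 in CFAE+6, 258 and 274 in CFAE+8 and 217 and 228 in CFAE+8+MSC. A search of the GENCODE M21 transcripts found 92 near-identical copies of Gapdh elsewhere in the genome, here a transcript at least 95% identical over at least 50% of its length, of which 78 had counts. The copies together held 5880 and 5639 counts in MEF, 4735 and 5540 in CFAE+6, 5213 and 5320 in CFAE+8 and 5167 and 4623 in CFAE+8+MSC. The Gapdh row thus held only 3.16 ± 0.289% of the joint counts in MEF, 2.71 ± 0.449% in CFAE+6, 4.81 ± 0.129% in CFAE+8 and 4.37 ± 0.473% in CFAE+8+MSC.

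The processed pseudogene Gm13394 (ENSMUSG00000083773, chr2:28933610-28934609, minus strand) took 94.98% of all counts of the copies. Its 1000 bases match the Gapdh messenger RNA with 1 mismatch (99.9% identity). The 120 coding bases around that mismatch, bases 286 to 405 of the Gapdh coding sequence, are shown to make plain how little separates both loci for a read, with the differing base in capitals.
Gapdh: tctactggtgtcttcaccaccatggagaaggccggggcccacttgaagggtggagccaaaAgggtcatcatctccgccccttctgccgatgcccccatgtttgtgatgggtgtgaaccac
Gm13394: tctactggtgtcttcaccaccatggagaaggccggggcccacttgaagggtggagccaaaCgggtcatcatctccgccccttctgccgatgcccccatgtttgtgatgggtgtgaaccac
A read that does not span that base fits Gm13394 and Gapdh equally well over those 1000 bases. Identity and counts did not go together across the copies. Gm10359 and Gm12671, each 100% identical to Gapdh over 1002 bases, held 0 counts in every library. How the reads came to be divided among these loci, and whether the copy counts stem from Gapdh RNA, was not tested. In its own row, Gapdh changed by 0.36 ± 0.13 (adjusted p = 0.0166) in CFAE+8, -0.51 ± 0.14 (adjusted p = 0.00236) in CFAE+6 and 0.16 ± 0.13 (adjusted p = 0.293) in CFAE+8+MSC against MEF. The first was not called without MEF replicate 2 (0.21) or CFAE+8 replicate 2 (0.33), or with DESeq2, and the second was not called without MEF replicate 1 (-0.35). With the copies added, the joint level was 555 ± 32.5 CPM in MEF, 458 ± 39.2 CPM in CFAE+6, 471 ± 5.26 CPM in CFAE+8 and 452.5 ± 19.5 CPM in CFAE+8+MSC. The joint change was -0.24 in CFAE+8, -0.28 in CFAE+6 and -0.30 in CFAE+8+MSC, all called, so that the sign turned for CFAE+8 and CFAE+8+MSC. The counts of higher and lower genes above use the Gapdh row as deposited.

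Eno1 (ENSMUSG00000063524, chr4:150236721-150248879, plus strand), the main enolase, also has near-identical copies, chiefly Eno1b on chromosome 18 (99.5% identity) and the processed pseudogene Gm4735 (chr2:80837141-80838442, plus strand, 99.6% identity), which took 53.5% and 45.5% of the counts of its 4 copies. The Eno1 row stood at 1002 and 1008 CPM in MEF, 721 and 700.0 CPM in CFAE+8, 706 and 664 CPM in CFAE+8+MSC and 575 and 586 CPM in CFAE+6, and it held between 59.04% and 60.03% of the joint counts on average in each group. In its own row Eno1 changed by -0.50 ± 0.04 (adjusted p = 9.90e-12) in CFAE+8, -0.79 ± 0.04 (adjusted p = 2.63e-16) in CFAE+6 and -0.55 ± 0.04 (adjusted p = 1.01e-12) in CFAE+8+MSC. With the copies added the changes were -0.51, -0.80 and -0.58, so that unlike Gapdh the sign and the size of the change held. Of the 32 genes, 11 had near-identical copies. Besides Gapdh and Eno1, only Ldhb reached 5% of its own counts in a library, with the processed pseudogene Gm5514 (98.004% identity) at 5.13%.

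**Figure D3:**
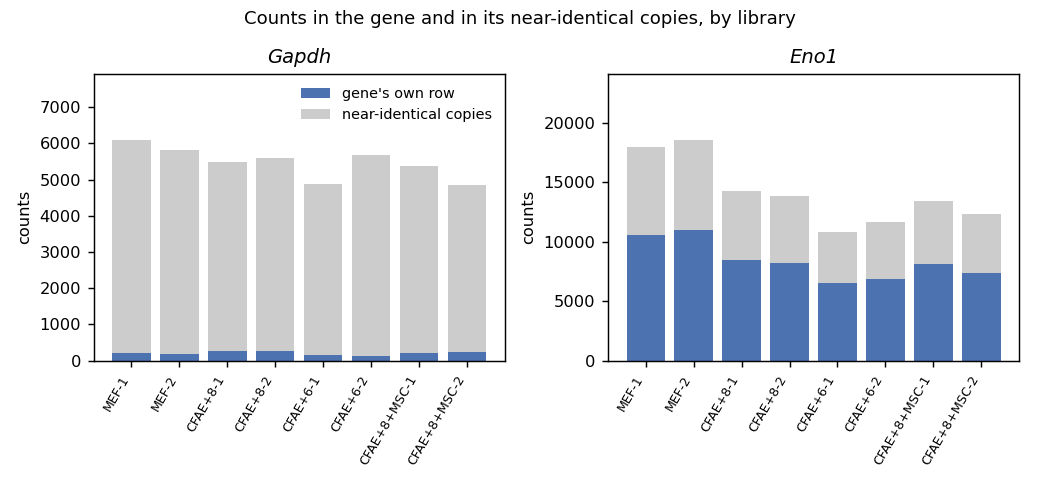
Counts of Gapdh and Eno1 in their own rows and in their near-identical copies, for each of the 8 libraries. The Gapdh row holds 2.71% to 4.81% of the joint counts as group means, and the Eno1 row about 59% to 60%.

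None of the 3 kinases that steer glycolytic flux was called lower than in MEF. Pfkfb4, which sets the level of the phosphofructokinase activator fructose 2,6-bisphosphate, stood at 11.9 and 9.25 CPM in MEF, 26.3 and 21.5 CPM in CFAE+8, 26.4 and 26.8 CPM in CFAE+8+MSC and 29.4 and 24.5 CPM in CFAE+6. Every cocktail library was above both MEF libraries, with a rise of 1.18 ± 0.14 (adjusted p = 3.38e-08) in CFAE+8, 1.35 ± 0.14 (adjusted p = 1.83e-09) in CFAE+6 and 1.33 ± 0.14 (adjusted p = 2.62e-09) in CFAE+8+MSC. Pfkfb3, the form of the same enzyme with the strongest kinase activity, stood at 34.4 and 36.2 CPM in MEF, 48.5 and 46.4 CPM in CFAE+8, 48.2 and 46.7 CPM in CFAE+8+MSC and 41.5 and 38.1 CPM in CFAE+6. It rose by 0.43 ± 0.09 in CFAE+8 (adjusted p = 9.26e-05) and by 0.43 ± 0.09 in CFAE+8+MSC (adjusted p = 9.59e-05), while in CFAE+6 its difference was 0.17 ± 0.09 and not called (95% interval -0.01 to 0.35). The CFAE+6 difference was called with upper-quartile scaling (0.22) and with library totals (0.33). Pdk1, a HIF target, encodes a kinase that holds back the use of pyruvate in mitochondria. Pdk1 stood at 15.7 and 17.4 CPM in MEF, 16.8 and 15.3 CPM in CFAE+8, 17.1 and 16.5 CPM in CFAE+8+MSC and 13.6 and 13.6 CPM in CFAE+6. It was called in none of the 3 comparisons, with 95% intervals of -0.32 to 0.23 in CFAE+8, -0.57 to -0.003 in CFAE+6 and -0.26 to 0.29 in CFAE+8+MSC.

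Both HIF alpha subunit genes were lower in the cocktails. Hif1a (ENSMUSG00000021109, chr12:73901375-73947530, plus strand) stood at 264 and 269.8 CPM in MEF, 143 and 147 CPM in CFAE+8, 168 and 168 CPM in CFAE+8+MSC and 152 and 139 CPM in CFAE+6, with no cocktail library near MEF, and changed by -0.88 ± 0.05 (adjusted p = 1.28e-14) in CFAE+8, -0.87 ± 0.05 (adjusted p = 1.52e-14) in CFAE+6 and -0.67 ± 0.05 (adjusted p = 5.61e-12) in CFAE+8+MSC. Epas1, which encodes HIF-2 alpha (chr17:86753907-86833410), stood at 26.6 and 27.02 CPM in MEF, 9.48 and 12.5 CPM in CFAE+8, 10.9 and 12.9 CPM in CFAE+8+MSC and 14.02 and 13.1 CPM in CFAE+6. Its 3 changes were -1.29 ± 0.14 (adjusted p = 4.64e-09), -0.98 ± 0.14 (adjusted p = 3.91e-07) and -1.17 ± 0.14 (adjusted p = 2.55e-08) in the same order. Of the pair's counts per kilobase, Epas1 held 10.03 ± 0.0303% in MEF, 9.37 ± 0.127% in CFAE+6, 7.74 ± 1.25% in CFAE+8 and 7.31 ± 0.819% in CFAE+8+MSC. HIF alpha proteins are set mainly by their breakdown, which RNA levels do not measure.

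The 7 hypoxia targets split. Vegfa (ENSMUSG00000023951, chr17:46016993-46032369, minus strand), the growth factor for blood vessels, stood at 95.5 and 94.3 CPM in MEF, 187 and 188 CPM in CFAE+8, 171 and 180.1 CPM in CFAE+8+MSC and 180.2 and 185 CPM in CFAE+6. All 6 cocktail libraries lay above both MEF libraries, and Vegfa rose by 0.98 ± 0.06 in CFAE+8 (adjusted p = 2.24e-15), 0.94 ± 0.06 in CFAE+6 (adjusted p = 5.82e-15) and 0.89 ± 0.06 in CFAE+8+MSC (adjusted p = 2.58e-14). Summed endothelial markers stood at 18.8 to 19.1 CPM in MEF and at 25.3 to 61.6 CPM in the cocktails. Bnip3, a mitophagy receptor of the BCL2 family, stood at 28.6 and 27.2 CPM in MEF, 19.9 and 23.2 CPM in CFAE+8, 15.4 and 15.3 CPM in CFAE+8+MSC and 15.1 and 16.9 CPM in CFAE+6, all cocktail libraries being below MEF. It changed by -0.80 ± 0.12 (adjusted p = 1.51e-06) in CFAE+6 and -0.86 ± 0.12 (adjusted p = 5.04e-07) in CFAE+8+MSC, and by -0.37 ± 0.12 (adjusted p = 0.00660) in CFAE+8, which was not called without MEF replicate 1 (-0.33) or CFAE+8 replicate 1 (-0.26), with library totals (-0.20) or with DESeq2. Higd1a, a mitochondrial protein induced by low oxygen, stood at 42.5 and 36.00 CPM in MEF, 17.9 and 22.6 CPM in CFAE+8, 22.3 and 27.9 CPM in CFAE+8+MSC and 23.6 and 25.2 CPM in CFAE+6 and changed by -0.95 ± 0.12 in CFAE+8, -0.68 ± 0.12 in CFAE+6 and -0.65 ± 0.12 in CFAE+8+MSC (adjusted p at most 2.55e-05). Bnip3 shares 22.2% of its exon length with other genes and Higd1a 22.5%, so both are uncertain.

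Egln3, the prolyl hydroxylase PHD3 that marks HIF alpha for breakdown and is itself a HIF target, stood at 13.97 and 12.5 CPM in MEF, 6.66 and 5.004 CPM in CFAE+8, 5.98 and 7.33 CPM in CFAE+8+MSC and 11.2 and 12.5 CPM in CFAE+6. The CFAE+6 libraries reached into the MEF range, and those of CFAE+8 and CFAE+8+MSC did not. Egln3 changed by -1.18 ± 0.19 in CFAE+8 (adjusted p = 3.11e-06) and by -0.99 ± 0.19 in CFAE+8+MSC (adjusted p = 3.09e-05), while in CFAE+6 the difference was -0.16 ± 0.17 (95% interval -0.50 to 0.19). Ndrg1, a stress-responsive gene of differentiating cells, stood at 52.3 and 50.9 CPM in MEF, 34.1 and 37.1 CPM in CFAE+8, 57.9 and 56.98 CPM in CFAE+8+MSC and 65.9 and 65.5 CPM in CFAE+6, below MEF in CFAE+8 and above it in the other cocktails. Its change was -0.54 ± 0.08 (adjusted p = 1.47e-06) in CFAE+8, 0.35 ± 0.08 (adjusted p = 2.14e-04) in CFAE+6 and 0.15 ± 0.08 (adjusted p = 0.0824) in CFAE+8+MSC, the last not called. That last difference was called with upper-quartile scaling (0.18) and with library totals (0.29). Car9, the cell-surface carbonic anhydrase that is among the most hypoxia-specific HIF-1 targets, was low throughout at 3.04 and 3.39 CPM in MEF, 2.73 and 3.14 CPM in CFAE+8, 2.17 and 2.80 CPM in CFAE+8+MSC and 1.76 and 2.23 CPM in CFAE+6 and was called in no comparison. Ankrd37 had 0 to 6 counts in each library.

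**Figure D4:**
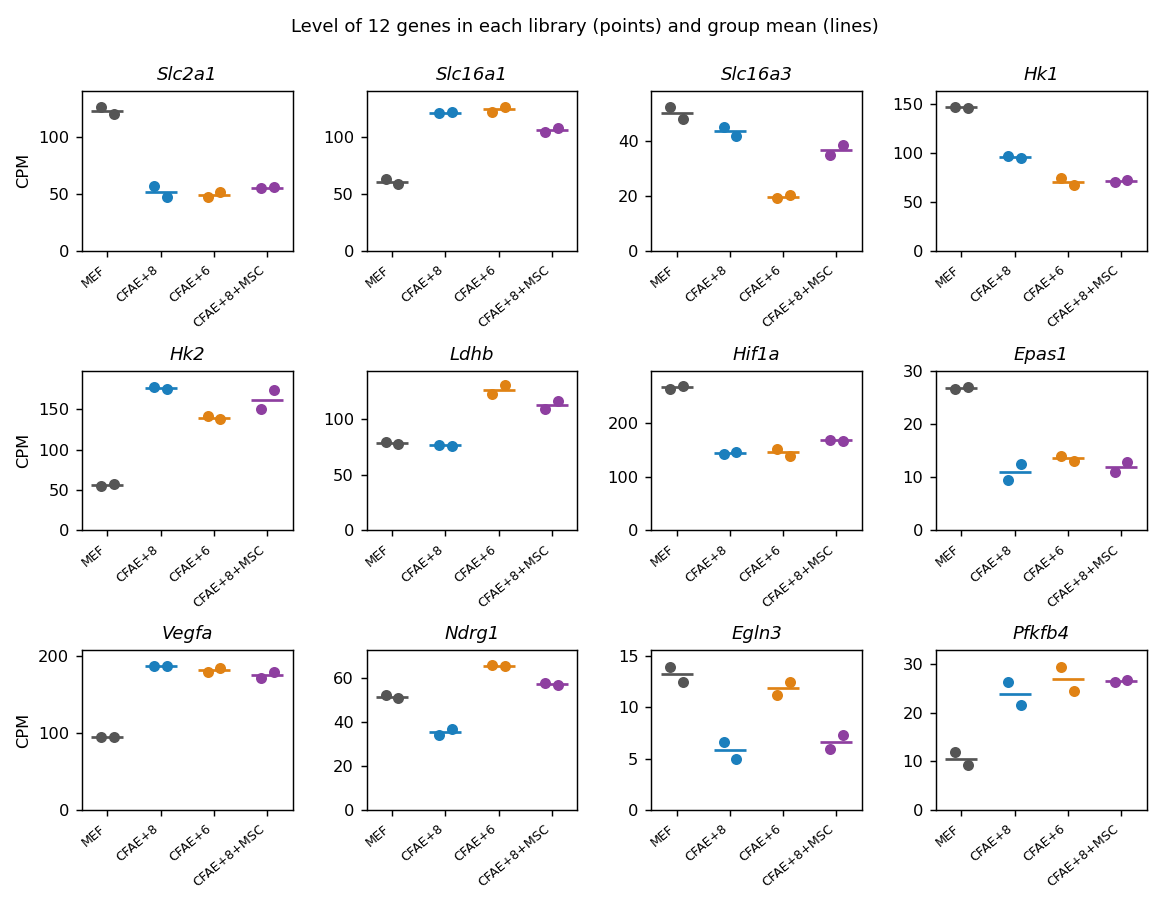
Level in CPM (vertical axis, linear, from 0) of 12 of the genes in each library (points), with the group mean (lines), for MEF, CFAE+8, CFAE+6 and CFAE+8+MSC. Slc2a1, Hk1, Hif1a and Epas1 are highest in MEF, Slc16a1, Hk2, Vegfa and Pfkfb4 lowest there, and Slc16a3, Ldhb, Ndrg1 and Egln3 differ between the cocktails.

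The effect of the CDK8 inhibitor MSC2530818 was addressed by setting CFAE+8+MSC against CFAE+8. Of the 31 tested, 4 were higher and 10 lower in CFAE+8+MSC than in CFAE+8, beside 29.3% of all tested genes called, 15.6% higher and 13.8% lower, and the median log2 change was -0.09 beside -0.00446 over all genes. Libraries did not overlap for 20 of the 31, beside 63.2% of all tested genes. Ndrg1 and Ldhb rose, by 0.69 ± 0.08 (adjusted p = 6.47e-08) and 0.56 ± 0.06 (adjusted p = 4.77e-08), and their CFAE+8+MSC libraries did not overlap with CFAE+8. Pfkp rose by 0.34 ± 0.07 (adjusted p = 3.67e-04). Eno2 and Hk1 changed by -0.47 ± 0.08 (adjusted p = 1.91e-05) and -0.43 ± 0.07 (adjusted p = 7.55e-06), and Tpi1, Gpi1, Pfkl and Aldoa by -0.28 ± 0.05, -0.28 ± 0.05, -0.25 ± 0.07 and -0.24 ± 0.04 (largest adjusted p 0.00575). Slc2a1 and Vegfa were not called, with 95% intervals of -0.08 to 0.26 and -0.20 to 0.01.

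The other 5 calls in CFAE+8+MSC against CFAE+8 were lost when 1 or another library was left out, some with little change in the fold. Hif1a was higher by 0.21 ± 0.06 (adjusted p = 0.00383) and stood at 0.20, not called, without CFAE+8 replicate 1. Bnip3 was lower, at -0.49 ± 0.13 (adjusted p = 0.00360), and not called without CFAE+8 replicate 2 (-0.37). Pfkm, at -0.29 ± 0.08 (adjusted p = 0.00646), was not called without CFAE+8 replicate 1 (-0.25) or CFAE+8+MSC replicate 1 (-0.16), nor with DESeq2. Slc16a1, at -0.19 ± 0.06 (adjusted p = 0.0158), and Slc16a3, at -0.24 ± 0.09 (adjusted p = 0.0436), were both lost without CFAE+8 replicate 1 (-0.20 and -0.18), CFAE+8 replicate 2 (-0.18 and -0.29) or CFAE+8+MSC replicate 1 (-0.16 and -0.17), and with DESeq2. In the other direction, Higd1a became called without CFAE+8 replicate 2 (0.49) or CFAE+8+MSC replicate 1 (0.46), and Hk2 without CFAE+8+MSC replicate 2 (-0.22). With a test against a 1.2-fold change, 2 genes passed as higher, and 2 lower.

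A-83-01 and E-616452, both TGF-beta receptor inhibitors, were compared in the same CFAE cocktail at the same day, with doses that the labels do not give. Of the 31 genes, 3 were higher and 15 lower in CFAE+6 than in CFAE+8, beside 26.6% of all tested genes called, 14.3% higher and 12.3% lower. The median was -0.13 beside 0.000883 over all genes, and libraries did not overlap for 25 of the 31, beside 60.9% of all tested genes. Of the 17 enzymes, 12 were lower with E-616452 and 1, Ldhb, higher. These 12 include the Gapdh row, which with its copies added stood at -0.04 and was not called, and 5 enzymes (Gpi1, Ldha, Pkm, Pgk1 and Eno2) that were not called without CFAE+8 replicate 2. With a test against a 1.2-fold change, 3 of the 31 genes were higher and 4 lower, beside 1085 and 569 of all 15470 tested genes. This comparison and that of CFAE+8+MSC with CFAE+8 share the CFAE+8 libraries.

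Among the 31 genes Slc16a3 had the largest fall, -1.14 ± 0.10 (adjusted p = 2.82e-10), and Egln3 the largest rise, 1.02 ± 0.19 (adjusted p = 1.16e-04). Ndrg1 rose by 0.89 ± 0.08 (adjusted p = 4.86e-10) and Ldhb by 0.73 ± 0.06 (adjusted p = 2.91e-10). Hk1 changed by -0.44 ± 0.07 (adjusted p = 5.44e-06), Pfkl by -0.44 ± 0.07 (adjusted p = 1.47e-05), Hk2 by -0.33 ± 0.06 (adjusted p = 1.05e-04) and Eno1 by -0.29 ± 0.04 (adjusted p = 2.78e-06). Aldoa and Tpi1 changed by -0.25 ± 0.04 and -0.23 ± 0.05. The Gapdh row, at -0.88 ± 0.14 (adjusted p = 1.02e-05), stood at -0.04 with its copies added and was then not called. Slc2a1, Slc16a1, Hif1a and Vegfa did not pass the test, with 95% intervals of -0.24 to 0.10, -0.09 to 0.15, -0.11 to 0.12 and -0.15 to 0.07.

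Of the calls between CFAE+6 and CFAE+8, 7 small falls were lost when 1 library was left out. They were Gpi1 at -0.23 ± 0.05 (adjusted p = 7.37e-04), Ldha at -0.15 ± 0.04 (adjusted p = 0.00845), Pkm at -0.12 ± 0.04 (adjusted p = 0.0346), Pgk1 at -0.13 ± 0.04 (adjusted p = 0.0321), Eno2 at -0.25 ± 0.08 (adjusted p = 0.0146), Bnip3 at -0.43 ± 0.12 (adjusted p = 0.0108) and Pfkfb3 at -0.25 ± 0.08 (adjusted p = 0.0249). Without CFAE+8 replicate 2 all 7 were lost, with values of -0.18, -0.13, -0.12, -0.15, -0.22, -0.31 and -0.28 in that order, and 8 genes in all remained lower. Without CFAE+8 replicate 1, Pkm (-0.12), Pgk1 (-0.10), Eno2 (-0.27) and Pfkfb3 (-0.22) were lost. Without CFAE+6 replicate 1, Ldha (-0.12), Pkm (-0.04), Pgk1 (-0.11), Eno2 (-0.20) and Bnip3 (-0.34) were lost, and without CFAE+6 replicate 2, Pfkfb3 (-0.19). DESeq2 did not call Pkm, Eno2, Bnip3 and Pfkfb3. In the other direction, Higd1a, not called with all libraries, became called without CFAE+8 replicate 2 (0.45), as it did in CFAE+8+MSC against CFAE+8.

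**Figure D5:**
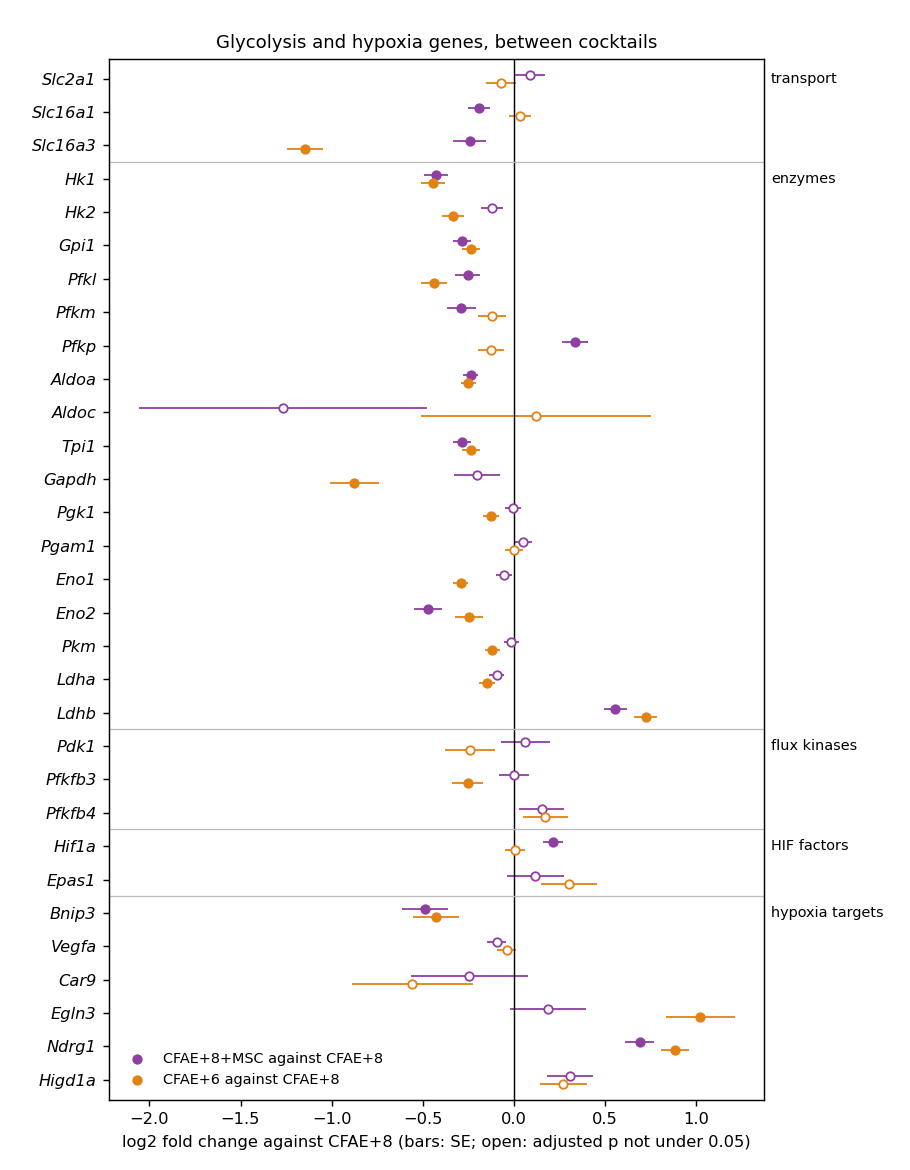
Log2 fold change against CFAE+8 of each tested gene in CFAE+8+MSC and in CFAE+6, with bars for the standard error and open symbols where the adjusted p was not under 0.05. Ldhb and Ndrg1 lie right of 0 in both, Slc16a3 lies far left only in CFAE+6 at -1.14, and Egln3 far right there at 1.02.

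The groups CFAE+8+MSC and CFAE+6 were compared directly. Fewest genes differed here: 6 of the 31 genes were higher and 2 lower in CFAE+8+MSC, beside 10.5% of all tested genes called, 6.21% higher and 4.27% lower, with a median of 0.04 beside -0.00417. Libraries did not overlap for 21 of the 31, beside 49.9% of all tested genes. Slc16a3 was higher with MSC2530818, at 0.90 ± 0.10 (adjusted p = 2.19e-07), and so was Pfkp, at 0.46 ± 0.07 (adjusted p = 2.79e-05), both without overlap between the groups. Egln3 was lower, at -0.84 ± 0.19 (adjusted p = 0.00285), but not called without CFAE+8+MSC replicate 1 (-0.69). Eno1 was higher by 0.24 ± 0.04 (adjusted p = 1.88e-04). The Gapdh row was higher by 0.67 ± 0.14 (adjusted p = 0.00123), and with the copies added the joint change was -0.02 and not called. Ldhb and Ndrg1 were not called, with 95% intervals of -0.29 to -0.04 and -0.35 to -0.04.

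The other 3 calls between CFAE+8+MSC and CFAE+6 were each lost when any of 2 or 3 libraries was left out. Hif1a was higher by 0.21 ± 0.06 (adjusted p = 0.0142) and was not called without CFAE+8+MSC replicate 1 (0.21), CFAE+8+MSC replicate 2 (0.21) or CFAE+6 replicate 2 (0.14). Hk2, at 0.21 ± 0.06 (adjusted p = 0.0222), was not called without CFAE+8+MSC replicate 2 (0.11) or CFAE+6 replicate 2 (0.19), and Slc16a1, at -0.23 ± 0.06 (adjusted p = 0.0132), was not called without CFAE+8+MSC replicate 1 (-0.20) or CFAE+6 replicate 2 (-0.20). DESeq2 did not call Hk2 and Slc16a1. With library totals the split was 6 higher and 4 lower, beside 812 and 829 of all 15470 tested genes. Pkm, not called with all libraries (0.11 ± 0.04), was called without CFAE+8+MSC replicate 1 (0.17) or CFAE+6 replicate 2 (0.18). Pfkl became called without CFAE+6 replicate 2 (0.30), and Pfkm without CFAE+8+MSC replicate 2 (-0.30).

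Across genes, levels were set side by side per kilobase of the deposited gene length. In MEF the order began with Pkm at 427 ± 3.32 CPM per kilobase, Aldoa at 327 ± 7.36, Ldha at 283 ± 12.3, Pgk1 at 224 ± 2.39, Pgam1 at 212 ± 7.54, Eno1 at 187 ± 0.827 and Tpi1 at 149.8 ± 3.35. After a gap came Ldhb at 50.1 ± 0.925 and Gpi1 at 49.4 ± 1.04, which overlapped, then Hif1a at 45.3 ± 0.645 and Slc2a1 at 35.3 ± 1.16. At the foot of the order were Pfkfb4, Pdk1, Car9 and, at 0.121 ± 0.00316, Ankrd37. Of the 31 pairs of neighbours in the order, the libraries overlapped in 12 in MEF, 8 in CFAE+6, 8 in CFAE+8 and 9 in CFAE+8+MSC. Hk2 moved from rank 21 in MEF to rank 11 to 13 in the cocktails. The Gapdh row ranked 27 in MEF, where the counts of its copies are not included.

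Companion genes of the same pathways were counted alongside. Of 28 tested further genes of glycolysis and pyruvate use, 5 were higher and 17 lower in CFAE+8, 5 and 16 in CFAE+6, and 7 and 18 in CFAE+8+MSC against MEF, with median log2 changes of -0.52, -0.52 and -0.60. Of all genes tested, 62.0% were called in CFAE+8 (30.8% higher and 31.3% lower), 63.1% in CFAE+6 (31.6% and 31.5%) and 64.1% in CFAE+8+MSC (31.9% and 32.2%), with medians of 0.01, 0.02 and 0.01. Eno3, the muscle enolase, measured 78.3 ± 3.11 CPM in MEF but 4.34 ± 0.260 in CFAE+8, and changed by -4.17 ± 0.13 (adjusted p = 7.51e-22), -4.04 ± 0.13 (adjusted p = 1.21e-21) and -3.69 ± 0.12 (adjusted p = 4.44e-21) in CFAE+8, CFAE+6 and CFAE+8+MSC. Summed skeletal muscle markers stood at 168 to 170.4 CPM in MEF and at 21.3 to 71.1 CPM in the cocktails, and their part in this change was not tested. Slc2a3, which encodes the high-affinity glucose transporter GLUT3, moved opposite to Slc2a1: it stood at 11.2 ± 0.0946 CPM in MEF and rose by 2.03, 1.73 and 2.01, all called. Eno1b, the near-identical copy of Eno1, changed by -0.48, -0.86 and -0.60, all called.

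Of 26 further hypoxia targets, 5 were higher and 16 lower in CFAE+8, 7 and 15 in CFAE+6, and 8 and 16 in CFAE+8+MSC against MEF, beside 62.0%, 63.1% and 64.1% of all tested genes called. Their medians were -0.34, -0.40 and -0.38. Angptl4, an inhibitor of lipoprotein lipase that PPAR receptors also induce, measured 12.2 ± 1.27 CPM in MEF but 244 ± 1.66 in CFAE+8, and rose by 4.32 ± 0.08 (adjusted p = 5.68e-28), 4.19 ± 0.08 (adjusted p = 1.47e-27) and 4.21 ± 0.08 (adjusted p = 1.46e-27) in CFAE+8, CFAE+6 and CFAE+8+MSC. P4ha2, a collagen prolyl hydroxylase, fell from 98.8 ± 5.08 CPM in MEF, with changes of -1.71, -1.28 and -1.11, all called. Adm, which encodes the vasodilator peptide adrenomedullin, changed by -2.11 ± 0.09 (adjusted p = 4.92e-18) in CFAE+8 and less, by -0.92 and -0.51, in the other cocktails. Between cocktails, Adm was higher in CFAE+8+MSC and in CFAE+6 than in CFAE+8, by 1.60 ± 0.10 (adjusted p = 7.86e-14) and 1.18 ± 0.10 (adjusted p = 1.54e-10). Against CFAE+8, 9 of the 26 were higher and 5 lower in CFAE+8+MSC, beside 29.3% of all tested genes called (15.6% higher and 13.8% lower), and 5 higher and 4 lower in CFAE+6, beside 26.6% (14.3% and 12.3%).

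Of the 11 genes for oxygen sensing, 3 were higher and 2 lower in CFAE+8, 2 and 4 in CFAE+6, and 2 and 5 in CFAE+8+MSC against MEF, beside 62.0%, 63.1% and 64.1% of all tested genes called. Their medians were -0.05, -0.0174 and -0.05. Hif3a, whose product can dampen HIF activity, stood at 0.185 ± 0.127 CPM in MEF, which is under the floor of 3 counts in a library of average size, and at 4.12 ± 0.467 CPM in CFAE+6, 2.08 ± 0.171 CPM in CFAE+8 and 1.60 ± 0.675 CPM in CFAE+8+MSC. It was called higher in each (largest adjusted p 0.000171). Elob, an adaptor of the complex that ubiquitinates HIF alpha, changed by -0.50 ± 0.06 (adjusted p = 1.62e-08), -0.56 ± 0.06 (adjusted p = 1.84e-09) and -0.68 ± 0.06 (adjusted p = 3.85e-11) in CFAE+8, CFAE+6 and CFAE+8+MSC. Arnt2, a neural partner of HIF alpha subunits, changed by -0.61 in CFAE+6 and -0.79 in CFAE+8+MSC, and by -0.12 ± 0.10 (adjusted p = 0.307) in CFAE+8, which was not called.

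Sugar-responsive and branching pathways were counted too. Of the 8 genes in the pentose phosphate pathway, 2 were higher and 6 lower in CFAE+8, 2 and 5 in CFAE+6, and 2 and 4 in CFAE+8+MSC against MEF, where 62.0%, 63.1% and 64.1% of all tested genes were called, close to evenly split between higher and lower. Their medians were -0.23, -0.24 and -0.18. G6pdx, the entry enzyme of that pathway, rose by 0.45 ± 0.07 (adjusted p = 7.18e-07) in CFAE+8, 0.39 ± 0.07 (adjusted p = 7.41e-06) in CFAE+6 and 0.27 ± 0.07 (adjusted p = 9.80e-04) in CFAE+8+MSC, while Rpe and Rpia, of its non-oxidative branch, were lower, at -0.64 and -0.96 in CFAE+8. Of the 3 tested gluconeogenesis genes, 2 were lower in CFAE+8, 2 in CFAE+6 and 3 in CFAE+8+MSC, and none was higher, beside 31.3%, 31.5% and 32.2% of all tested genes called lower. Pck2, the mitochondrial PEP carboxykinase, measured 114 ± 2.71 CPM in MEF but 28.5 ± 1.98 in CFAE+8 and changed by -1.996 ± 0.08 (adjusted p = 1.28e-18). Of 8 tested glucose-responsive genes and MYC regulators, 1 was higher and 5 lower in CFAE+8, 2 and 4 in CFAE+6, and 2 and 4 in CFAE+8+MSC, beside the same shares of all tested genes, with medians of -0.55, -0.23 and -0.31. Txnip, the inhibitor of glucose uptake that sugar itself induces, stood at 57.7 ± 5.59 CPM in MEF and changed by -3.28 ± 0.14 (adjusted p = 1.03e-18), -3.26 ± 0.14 (adjusted p = 1.21e-18) and -3.26 ± 0.14 (adjusted p = 1.32e-18). Myc, a direct activator of many glycolytic genes, changed by -1.61 ± 0.08 (adjusted p = 5.93e-17) in CFAE+8, -0.96 ± 0.07 (adjusted p = 2.58e-12) in CFAE+6 and -0.81 ± 0.07 (adjusted p = 8.68e-11) in CFAE+8+MSC, and between cocktails was higher in CFAE+8+MSC and CFAE+6 than in CFAE+8, by 0.80 and 0.65.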

How the data were processed

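Per the labels' protocols, libraries were prepared from total RNA with NEBNext Ultra reagents, a kit that does not mark strand. The authors deposited raw counts per gene. Per the submitters' processing notes they used featureCounts of Subread, DESeq2 and build mm10. The aligner and annotation release were not given in the sources used here. All 33 identifiers were found in GENCODE M21, 31 with the same start and end. The 32 genes and the companion lists were chosen with earlier results of these data known. All 32 genes are named, and of each companion list at most 3 genes with the smallest adjusted p against MEF, and at most 2 between cocktails.

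The function filterByExpr of edgeR 4.0.16 under R 4.3.3 left 15470 genes to test, from 28024 genes that had a count. Libraries were scaled by TMM. The quasi-likelihood F test was fitted with 1 mean per group to all 8 libraries (4 residual degrees of freedom, common biological coefficient of variation 0.0445), with Benjamini-Hochberg adjustment over all genes tested in each of 6 comparisons. The fit was also run on simulated counts with few changed genes, the same spread for every gene and no shift in composition. These settings differ from the data, so that run does not check the scaling. Alternatives were other scalings, no filter, DESeq2 1.42.0, a test against a 1.2-fold change, copies added, leaving out each library, and the replicate number as a block. Near-identical copies were found with blastn 2.17.0 on GENCODE M21 transcripts (identity at least 95%, hits of at least 100 bases, at least 50% of the copy aligned). Floors cover counting error only.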

Additional observations from a re-analysis of the deposited data

How the results depend on the processing

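Of 186 results (31 genes in 6 comparisons), 118 were called. Sign changes were counted only where the main fit or the alternative called the result. By that count there were none under RLE, upper-quartile or library-total scaling, without the filter or with DESeq2. There were also none with a test against a 1.2-fold change or with the block. With copies added, Gapdh reversed in CFAE+8 against MEF (-0.24), CFAE+8+MSC against MEF (-0.30) and CFAE+8+MSC against CFAE+6 (-0.0177). DESeq2 lost 12 calls and the 1.2-fold test 39. Counts that moved by over 1.5 times were, with the 1.2-fold test, 2 higher and 2 lower in CFAE+8+MSC against CFAE+8, 4 lower in CFAE+6 against CFAE+8, and 3 higher and 1 lower in CFAE+8+MSC against CFAE+6. Among all 15470 tested genes, the 1.2-fold test called 1294 higher and 731 lower in CFAE+8+MSC against CFAE+8. It called 1085 and 569 in CFAE+6 against CFAE+8, and 190 and 89 in CFAE+8+MSC against CFAE+6. In that last comparison 1 of the 31 genes was lower with DESeq2 and 4 with library totals, a scaling added after seeing the data. Among all genes, DESeq2 called 306 of 12020 lower there and library totals 829 of 15470. Leaving out 1 library gave 7 to 8 higher and 17 to 19 lower in CFAE+8 and in CFAE+6 against MEF, 7 to 8 and 18 in CFAE+8+MSC against MEF, 3 to 5 and 7 to 11 in CFAE+8+MSC against CFAE+8, 3 to 4 and 8 to 14 in CFAE+6 against CFAE+8, and 4 to 6 and 1 to 3 in CFAE+8+MSC against CFAE+6. With 1 library left in a group, that library was assumed to vary like the others, and Aldoc had no finite value without CFAE+8+MSC replicate 1, since the other library had no counts. The summed enzyme level with copies added was 8586 CPM in MEF, 6292 in CFAE+6, 7043 in CFAE+8 and 6660.5 in CFAE+8+MSC, and without the TMM factor 6739 in MEF and 6320 in CFAE+8. Same-numbered libraries did not deviate together (correlations -0.0224 to 0.063 over 6 pairs of groups with 2 numbers each), so the numbers were not taken as pairs. With the replicate block, Slc16a3 in CFAE+8 against MEF lost its call (adjusted p = 0.0514), which left 18 lower in place of 19, and no other call changed. At this depth Car9, Aldoc in the cocktails and Ankrd37 rest on few counts.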
